A study of Homo sapiens with 2 samples.

Results

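The enzymes that start mucin-type O-glycans were examined in MDA-MB-231 cells with and without depletion of RBMS1, an RNA-binding protein. The set holds 10 genes, taken by their GENCODE symbols among 49627 genes listed in the deposited transcript files, of which 22368 were above 0 in at least 1 library. It comprises 8 polypeptide GalNAc transferases (GALNT1, GALNT2, GALNT3, GALNT6, GALNT7, GALNT10, GALNT11 and GALNT12), the core 1 galactosyltransferase C1GALT1, and C1GALT1C1, its chaperone. MDA-MB-231 is a triple-negative human breast cancer line of mesenchymal character, and it was kept in L15 medium with serum and without added CO2. The data are 2 RNA-seq libraries, 1 from cells with stable RBMS1 knockdown and 1 from control cells. According to the study's methods, short hairpin RNA in the pLKO.1 vector was delivered by lentivirus, the cells were selected and kept in puromycin, and empty pLKO.1 was the negative control. Both libraries therefore come from infected and selected cells, and the labels do not name the hairpin or say whether the cells were a pool.

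Mucin-type O-glycosylation begins in the Golgi, where a GalNAc transferase moves N-acetylgalactosamine from its UDP carrier onto a serine or threonine. The family is large and its members differ in which peptides they prefer, and some, GALNT7 and GALNT10 among them, act mainly on peptides that already carry a GalNAc. C1GALT1 then adds galactose to make the core 1 disaccharide, a step that needs C1GALT1C1 (also called COSMC) for its folding.

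The GalNAc transferases hold a metal ion through an aspartate and a histidine separated by 1 residue. The stretch of coding sequence around this pair is shown because it is what the 8 transferases share at their active site, with the codons of the aspartate and the histidine in capitals. In each of the 8 main transcripts the pattern of aspartate, any residue, histidine, cysteine and glutamate occurred exactly 1 time, at residue 209 in GALNT1 and at residue 301 in GALNT7, the first and the last position among them. Sequences are from GENCODE release 29 on GRCh38, 5′ to 3′ on the strand of the gene.
GALNT1, chr18:35683525-35683551, plus strand: accttcctgGATgccCATtgtgagtgt
GALNT2, chr1:230243359-230243385, plus strand: accttcctgGACagtCACtgcgagtgt
GALNT3, chr2:165759563-165761923, minus strand, across an intron: acatttttaGATgctCACtgtgagtgt
GALNT6, chr12:51364348-51365448, minus strand, across an intron: acgttcctgGATgccCACtgtgagtgc
GALNT7, chr4:173295770-173295796, plus strand: atataccttGATgccCACtgtgaggtg
GALNT10, chr5:154376408-154376434, plus strand: acattcttgGATtcaCACtgtgaagcc
GALNT11, chr7:152108049-152108075, plus strand: gtgttcctgGACagcCACtgtgaagtg
GALNT12, chr9:98826883-98826909, plus strand: accttcctgGACtgtCACtgtgagtgc
C1GALT1, which belongs to another transferase family, has a run of 3 aspartates in the corresponding role, with the codons of the first and the last in capitals.
C1GALT1, chr7:7238530-7238556, plus strand: ttgaaagcaGATgatGACacgtatgtc
C1GALT1C1, which has no transferase activity of its own, held neither pattern in its 318 codons.

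The labels were checked by the targeted gene. RBMS1 was at 3.76 FPKM (interval 3.12 to 5.39) in the knockdown library and 24.1 FPKM (21.7 to 27.7) in the control library, 15.6% of control, a log2 ratio of -2.40. FPKM scales the fragments of a transcript to its length and to the size of the library, so that levels can be compared between genes. The interval of a transcript is the 95% range that Cufflinks gives for the estimate within a library. The interval of a gene is the sum of these bounds over all its transcripts, those at 0 FPKM included. It is therefore not a 95% range itself and widens with the number of transcripts listed. Each group was a single library, so the differences have no replicate check and no test was made, and they describe these 2 libraries only. The defining genes of the line were high in both libraries (VIM at 496 FPKM after knockdown and 563 in control). ESR1, PGR and CDH1 were below 0.1 FPKM, and KRT5, CD3E and ACTA2 were listed at 0. Other markers of other cell types were above 0. COL1A1 was at 0.47 FPKM after knockdown and 0.80 in control, and KRT14 at 0.13 and 0.05. PTPRC was at 0.11 and 0.02, and PECAM1 at 0.03 and 0.07. The receptor gene ERBB2 was at 7.496 FPKM after knockdown and 7.005 in control, the epithelial gene EPCAM was at 1.93 and 3.66 with intervals apart, and among the keratin genes KRT7 (46.3 and 66.9) and KRT18 (162 and 189.8) were lower and KRT8 (160 and 122) was higher after knockdown, each with intervals apart. Of the 10 marker genes with a mean of at least 1 FPKM, 5 were lower with intervals apart (VIM and CD44 among them). Another 4 were higher with intervals apart (AXL and CAV1 among them). Over all genes with such a mean, 11.5% were lower and 13.3% higher with intervals apart. Some of the marker changes were small, such as log2 ratios of -0.18 for VIM and 0.13 for AXL. S100A4 differed most, at 445 FPKM after knockdown and 178 in control. In bulk RNA fewer expressing cells and less RNA per cell cannot be told apart.

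Upon RBMS1 depletion GALNT10 was higher, GALNT7 was lower and GALNT2 was modestly higher, whereas GALNT1, GALNT3, GALNT6, GALNT11 and C1GALT1C1 had overlapping intervals as sums over their transcripts. C1GALT1 was higher as a sum over its transcripts, while its full-length transcript was lower. Log2 ratios were taken after adding 1 FPKM to both values, which understates the change of low genes, and only genes with a mean of at least 1 FPKM entered the counts. GALNT12 fell below this limit, so 9 of the 10 genes were compared, beside 11186 genes overall. None of the 9 was at least 2-fold lower or at least 2-fold higher, limits passed by 2.8% and 2.96% of all genes compared. By a limit of 1.5-fold, 2 of the 9 were higher (GALNT10 and C1GALT1) and 0 were lower, against 6.78% and 5.99% of all genes. The intervals of the libraries did not overlap for 3 genes that were higher (GALNT2, GALNT10 and C1GALT1) and for 1 that was lower (GALNT7), against 13.3% and 11.5% of all genes. Counting the main transcript of each gene alone, they did not overlap for 3 genes that were higher (GALNT2, GALNT3 and GALNT10) and 3 that were lower (GALNT6, GALNT7 and C1GALT1), against 26.4% and 21.9% of the 10195 genes whose main transcript is a reference transcript. Weighted by transcript length, 3 were higher and 2 lower, against 16% and 14.6% of all genes. The median log2 ratio was 0.19 over the 9 genes and 0.02 over all genes. With the main transcript alone the medians were 0.04 and 0.03.

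**Figure D1:**
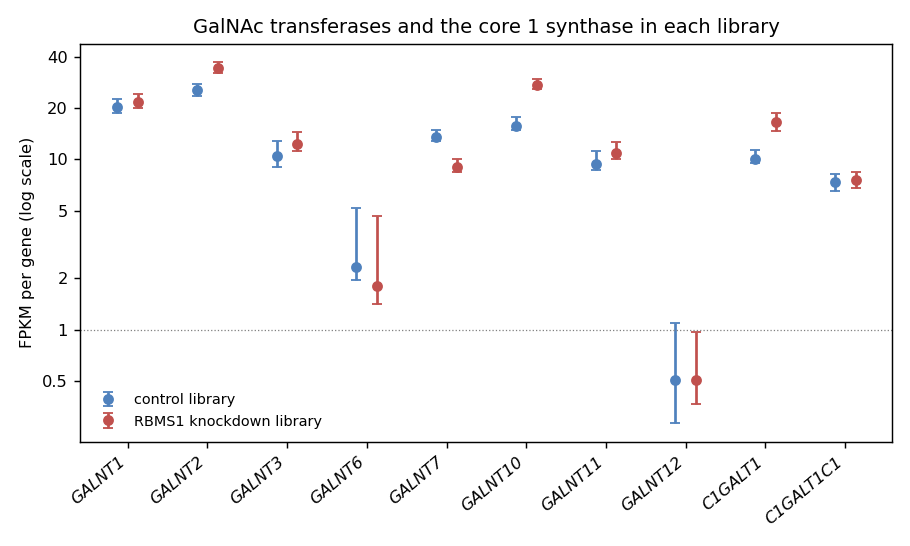
FPKM of each gene (log axis) in the control library (blue) and the RBMS1 knockdown library (red), 1 point per library. The bar is the within-library interval summed over the transcripts of the gene, and the dotted line is the filter of 1 FPKM. GALNT7 is the gene whose red bar lies wholly below the blue one, and the red bars of GALNT2, GALNT10 and C1GALT1 lie wholly above.

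As a sum over its transcripts GALNT2 was the most abundant of the 8 transferases in both libraries. By main transcript alone GALNT10 was the highest in both, at 27.1 FPKM after knockdown and 15.6 in control, where the main transcripts of GALNT1 and GALNT2 had 14.2 and 13.8 FPKM, and there the intervals of the GALNT10 and GALNT1 transcripts overlapped. In control cells GALNT2 made up 26.1% of their summed FPKM, followed by GALNT1 with 20.9%, GALNT10 with 15.99% and GALNT7 with 13.9%. The steps from GALNT2 to GALNT1 and from GALNT1 to GALNT10 exceeded the summed intervals. The neighbours GALNT10 and GALNT7, GALNT7 and GALNT3, and GALNT3 and GALNT11 had overlapping summed intervals. Those of the single expressed transcripts of GALNT10 and GALNT7 were apart (14.8 to 16.4 and 12.7 to 14.3 FPKM). In RBMS1-depleted cells GALNT10 was second with 23.0% of the sum, above GALNT1 with 18.5% and apart from it by its interval. GALNT7, the fourth in control cells, was the sixth here with 7.66% of the sum, and its summed interval overlapped that of GALNT11 above it. The intervals of the single expressed transcripts of GALNT7 and GALNT11 were apart (8.45 to 9.63 and 10.0 to 11.6 FPKM). GALNT6 and GALNT12 closed the order in both libraries, each apart from its upper neighbour. The sum over the 8 genes was 117.9 FPKM after knockdown and 97.6 in control, 121% of control.

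GALNT10, one of the glycopeptide-preferring transferases, gave the largest log2 ratio of the set. It was at 27.1 FPKM (25.8 to 29.5) in the knockdown library and 15.6 (14.8 to 17.6) in the control library, 174% of control and a log2 ratio of 0.76. It ranked 478 from the highest of the 11186 genes. All of its FPKM in both libraries came from a single coding transcript, ENST00000297107, with 11 introns, all of them annotated, and no listed transcript of another gene above 0 FPKM lay over its exons. The log2 ratio stayed between 0.55 and 0.79 under all 9 other ways of computing it, the lowest being the table of the whole series, where this transcript had 39.6 FPKM after knockdown and 26.7 in control.

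GALNT7, the other glycopeptide-preferring enzyme of the set, went the opposite way. It was at 9.04 FPKM (8.45 to 10.1) after knockdown and 13.5 (12.7 to 14.8) in control, 66.8% of control and a log2 ratio of -0.53, rank 787 from the lowest. Its value also came from 1 coding transcript, ENST00000265000, and its log2 ratio ranged from -0.63 to -0.40 under the 9 other settings. The 2 enzymes that share a preference for glycosylated peptides thus differed in direction. In RBMS1-depleted cells the interval of GALNT10 lay wholly above that of GALNT7. In control cells their summed intervals overlapped, as these include the upper bounds of transcripts at 0 FPKM. The intervals of their single expressed transcripts were apart in control cells too (14.8 to 16.4 FPKM for GALNT10 and 12.7 to 14.3 for GALNT7).

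Of the broadly acting transferases GALNT1 and GALNT2, only GALNT2 had summed intervals apart between the libraries, and their changes were not compared with each other. GALNT1 was at 21.8 FPKM (19.98 to 24.03) after knockdown and 20.4 (18.6 to 22.6) in control, a log2 ratio of 0.09. GALNT2 was at 34.5 FPKM (32.1 to 37.2) after knockdown and 25.4 (23.4 to 27.8) in control, 136% of control and a log2 ratio of 0.43. In both libraries GALNT2 was split between its reference transcript ENST00000366672 (17.2 and 13.8 FPKM) and an assembled transcript with a start further upstream, at the gene's annotated first base (17.4 and 11.7 FPKM), whose 15 introns are all annotated. The control library also listed an antisense transcript of AL136988.1, chr1:230280312-230281893 on the minus strand, at 13.1 FPKM (11.7 to 14.5), and all 1029 bases of it lay within GALNT2 exons. It was at 0 in the knockdown library. Whether reads were counted by strand was not given in the sources used here, and without strand the reads of both genes cannot be told apart there. When transcripts were weighted by length and these reads were added to GALNT2, its ratio to control went from 131% to 112%, a log2 ratio of 0.16 with 1 FPKM added on the FPKM scale.

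Part of the GALNT1 value belonged to a transcript annotated for nonsense-mediated decay, a pathway that removes messages with an early stop codon. This transcript, ENST00000590654, was at 7.15 FPKM (6.22 to 8.07) after knockdown and 6.15 (5.25 to 7.04) in control, 32.8% and 30.2% of the gene. Unlike the coding transcript ENST00000269195, which had 14.7 and 14.2 FPKM, it carries a cassette exon of 73 bases at chr18:35659858-35659930. The exon brings an in-frame stop codon after 50 codons, shown in capitals with the bases around it because it is what ends the reading frame.
GALNT1 cassette, chr18:35654801-35659883, plus strand, across an intron: gcgcaggtaaatTGAacatgaaattgg
The intervals of the cassette transcript overlapped between the libraries, as did those of the coding transcript, and in length-weighted values its share was 18.3% after knockdown and 16.6% in control.

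GALNT3, which glycosylates the phosphate hormone FGF23, and its close relative GALNT6 had overlapping intervals as summed values, while the main coding transcript of each had intervals apart, higher after knockdown for GALNT3 and lower for GALNT6. GALNT3 was at 12.3 FPKM (11.1 to 14.4) after knockdown and 10.4 (9.03 to 12.8) in control, a log2 ratio of 0.22. Its coding transcript ENST00000392701 was at 6.37 FPKM (5.79 to 6.94) after knockdown and 3.91 (3.49 to 4.33) in control, while ENST00000409882, which shares 97.1% of its bases with that transcript, was at 2.26 FPKM (1.80 to 2.71) in control and at 0 after knockdown. The gene's log2 ratio ran from 0.04 with reference transcripts alone to 0.59 with the main transcript alone. GALNT6 was low, at 1.80 FPKM (1.42 to 4.63) and 2.33 (1.97 to 5.20), a log2 ratio of -0.25 that stayed below 0 under every other setting (-0.87 to -0.11), the lowest being the table of the whole series, which lists 1 minor transcript of it. Its main coding transcript ENST00000543196 was at 0.729 FPKM (0.591 to 0.868) after knockdown and 1.57 (1.36 to 1.78) in control.

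GALNT11, a transferase known for acting on Notch1, was at 10.8 FPKM (10.0 to 12.6) after knockdown and 9.38 (8.65 to 11.2) in control, a log2 ratio of 0.19 from a single transcript. GALNT12, a transferase best known from colon, was at 0.506 FPKM (0.367 to 0.975) and 0.508 (0.282 to 1.09), the least abundant of the set. At this level its direction depended on which transcripts were counted: its coding transcript ENST00000375011 was at 0.506 FPKM (0.367 to 0.645) after knockdown and 0.072 (0.000185 to 0.144) in control, where an assembled transcript held the other 0.436 FPKM. An antisense transcript of AL136084.2, with 662 bases over GALNT12 exons, had 1.01 FPKM after knockdown and 0.362 in control.

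**Figure D2:**
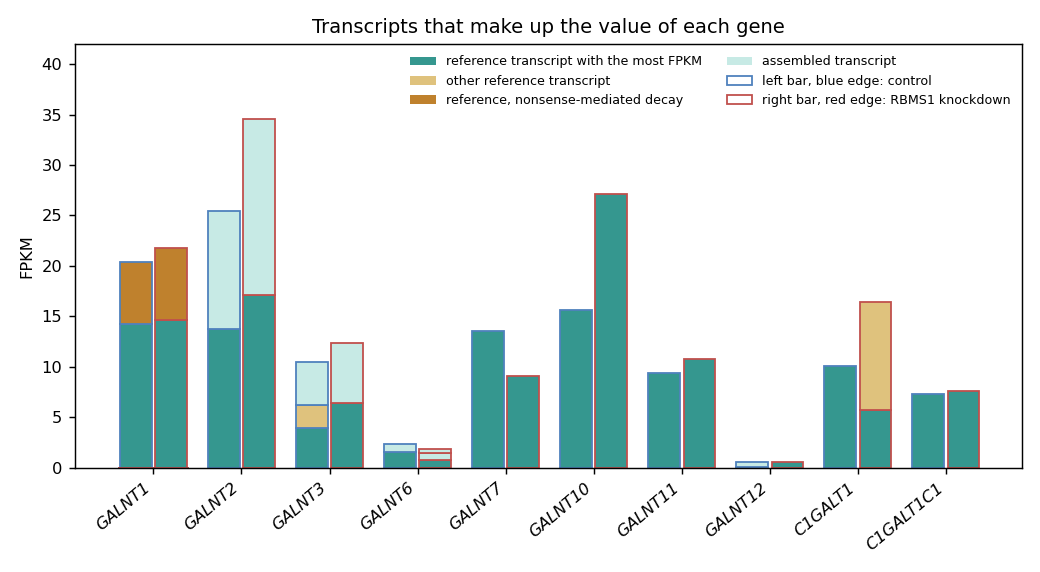
FPKM of the transcripts that make up each gene, stacked, with the control library on the left (blue edge) and the RBMS1 knockdown library on the right (red edge). GALNT7, GALNT10, GALNT11 and C1GALT1C1 consist of 1 transcript, while the second block of C1GALT1 stands in the knockdown library alone.

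C1GALT1, the enzyme that completes core 1, gave a higher summed FPKM but a lower full-length transcript. The gene was at 16.4 FPKM (14.7 to 18.7) after knockdown and 10.1 (9.49 to 11.3) in control, 163% of control and a log2 ratio of 0.66. The full-length coding transcript ENST00000436587, of 6235 bases, was at 5.70 FPKM (5.32 to 6.09) after knockdown and 10.1 (9.49 to 10.7) in control, a log2 ratio of -0.72. The gene's excess came from ENST00000402468, a transcript of 930 bases that was at 10.7 FPKM (9.33 to 12.2) after knockdown and listed at 0 in control, with an upper limit of 0.0726. Of its bases, 888 (95.5%) also lie in the full-length transcript, and 42 are its own. They follow the shared part of its last exon, and the first of them are shown in capitals because they are what separates both transcripts.
C1GALT1 short, chr7:7238911-7238940, plus strand: cctcctgtagagGTAAGTTTAGAAATTTTA

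Since FPKM divides by length, a short transcript raises the summed value of a gene more than its fragments would. Weighted by length, C1GALT1 was at 72.5% of control and its log2 ratio was -0.43 with the same 1 FPKM added, the reverse of the summed value. The table of the whole series lists 2 transcripts of this gene, with 9.92 FPKM after knockdown and 14.5 in control for the full-length transcript and with 0.746 and 1.85 FPKM for ENST00000223122. The direction of the summed FPKM of C1GALT1 thus rested on how its fragments were divided between 2 transcripts that share most of the shorter one. The length-weighted value, the full-length transcript and both transcripts in the table of the whole series were lower after knockdown. The processed pseudogenes named after it were listed between 0 and 0.289 FPKM.

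C1GALT1C1, the chaperone of C1GALT1, was at 7.57 FPKM (6.79 to 8.39) after knockdown and 7.31 (6.52 to 8.15) in control, a log2 ratio of 0.04 from 1 transcript. Its value lay between 0.01 and 0.05 under the 8 other settings, the narrowest range of the set.

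**Figure D3:**
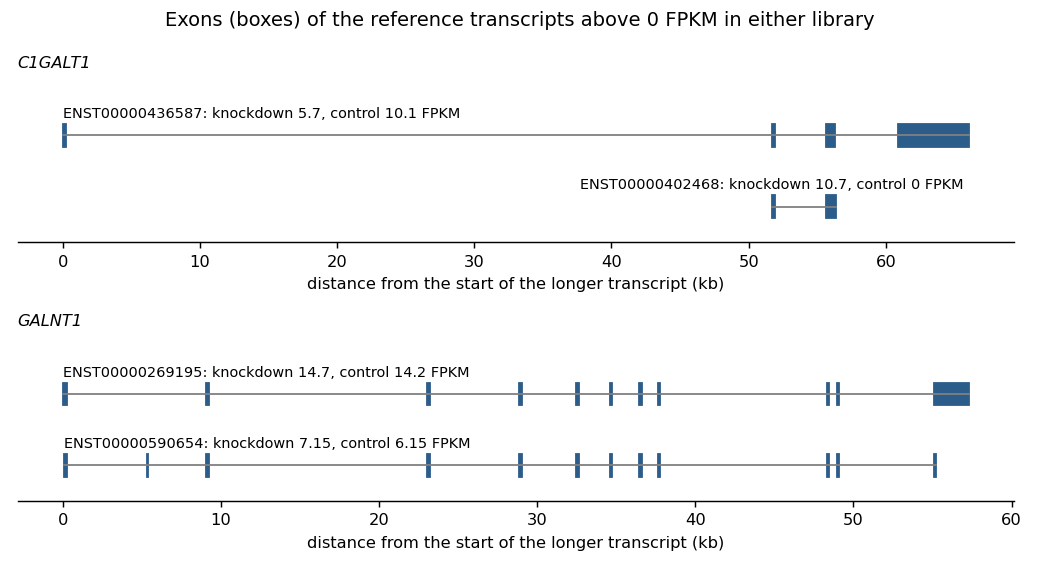
Exons (boxes) and introns (lines) of the reference transcripts of C1GALT1 and GALNT1 above 0 FPKM in either library, by distance in kb from the start of the longer transcript, with the FPKM of each library. The short C1GALT1 transcript lies towards the 3′ end and lacks the long last exon, and the second GALNT1 transcript carries 1 exon more.

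**Figure D4:**
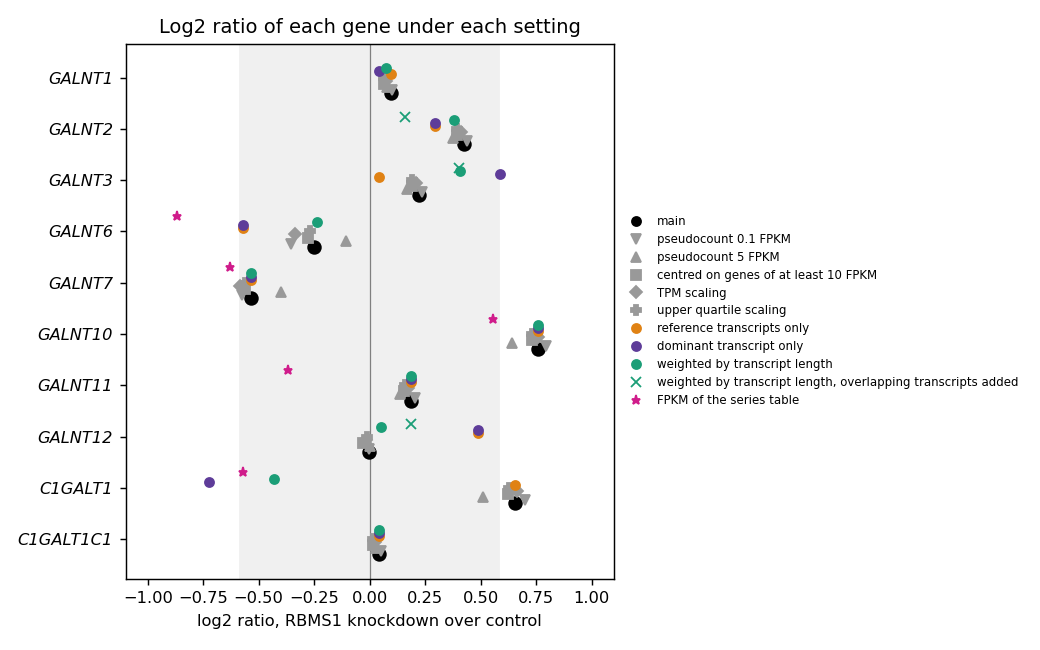
Log2 ratio of each gene (RBMS1 knockdown over control) as reported (black) and under each other setting, with changes under 1.5-fold shaded. GALNT10 stays right of 0 and GALNT7 and GALNT6 left of 0 under every setting, while C1GALT1, GALNT11 and GALNT12 have points on both sides.

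RBMS1 is known to bind AU-rich elements in 3′ untranslated regions, and the motif ATATA was counted in the 3′ untranslated region of each main transcript as a description (on the strand of the message, overlapping matches counted). It was present in 7 of the 10 genes. Over 9242 compared genes with such a region, 57.1% held it, and the median length was 994 bases against 2157 for the 10 genes. GALNT10, the gene with the highest ratio, had 2 matches in 4012 bases, fewer than the median of 6 in regions of similar length and below the lower quartile of 3. GALNT7, the gene with the lowest ratio, had 5 in 2250 bases, against a median of 3 and within the quartiles of 1 and 6. C1GALT1 had 11 in 4920 bases, against a median of 7 and within the quartiles of 4 and 13, and GALNT3 had 5 in 1190 bases, against a median of 1 and above the upper quartile of 3. GALNT6 had 4 against a median of 5, GALNT2 had 5 against 4, and GALNT1 had 4 against 3. In all, 5 of the 10 genes were above and 3 below the median for their length. GALNT11, GALNT12 and C1GALT1C1 held none. Sites of GALNT10 and GALNT7 are shown with the first match of each window in capitals, as these genes had the highest and the lowest ratio. The window of GALNT7 site 1 holds another match that overlaps the capitals, and not all matches of GALNT7 are shown.
GALNT10 site 1, chr5:154418322-154418350: tcccacagccagATATAcacccagctcca
GALNT10 site 2, chr5:154418996-154419024: agaaaaatgcaaATATAgagcaaatccct
GALNT7 site 1, chr4:173322103-173322131: agccagactttcATATAtaacttggtgat
GALNT7 site 2, chr4:173322265-173322293: tcatttctcagtATATAtttcaagagctt
A match describes the letters in the window only.

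Around the initiating step, 107 further genes in 7 lists were looked at. Of the 12 other GalNAc transferases, 4 passed the filter, none was 2-fold changed and 1 was lower with intervals apart, beside 11.5% of all genes. That gene, GALNT5, was at 4.11 FPKM after knockdown and 6.23 in control, a log2 ratio of -0.50 that was -0.13 with reference transcripts alone, and GALNT4 had the highest ratio, 0.02, a sign that turned when the libraries were centred. GALNT4 also shares its exon with a readthrough gene, so its value is uncertain. The median of the 4 was -0.27, beside 0.19 for the 9 genes above.

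Of the 10 enzymes that build the cores and extend them, 6 passed, 1 was at least 2-fold lower and none was 2-fold higher, beside 2.8% and 2.96% of all genes. The lower one was B4GALT1, which adds the galactose of N-acetyllactosamine chains, at 9.70 FPKM (8.56 to 10.9) after knockdown and 21.4 (20.3 to 22.6) in control, a log2 ratio of -1.07 and between -1.89 and -0.85 under other settings. The highest was B3GALT5, at 0.17, which was at 1.16 with its main transcript alone and at 0 with reference transcripts alone. Of the 12 enzymes that cap O-glycans with sialic acid or sulfate, 7 passed, 1 was lower beyond its intervals (ST6GALNAC2, -0.57) and 1 higher (CHST2, 0.43), beside 11.5% and 13.3% of all genes, and without assembled transcripts ST6GALNAC2 had no value above 0 while CHST2 turned to -0.76.

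Of the 17 genes that supply sugar donors, 16 passed, and NAGK, the kinase that salvages N-acetylglucosamine, was 2-fold lower at a log2 ratio of -1.27, beside 2.8% of all genes. By intervals 2 were lower (NAGK and CMAS) and 1 was higher (GNE), beside 11.5% and 13.3%. Weighted by transcript length the log2 ratio of NAGK was -0.20, and with its main transcript alone, listed at 0 after knockdown, it was -4.22. The highest of that list was GALT, at 0.53. Of the 24 mucins and other densely O-glycosylated proteins, which are the substrates of these transferases, 8 passed, none was 2-fold changed (2.8% lower and 2.96% higher over all genes), and the lowest was CD44 at -0.41. Of 12 enzymes that start other kinds of O-linked glycans 9 passed, from GYG1 at -0.36 to POFUT1 at 0.60, with 1 higher and 0 lower by intervals, and POFUT1 turned to -1.55 with reference transcripts alone. Of 20 genes that hold and sort glycosyltransferases in the Golgi 18 passed, from COG1 at -0.31 to GOLGA2 at 0.83, with a median of 0.13 and with 4 higher and 0 lower by intervals (13.3% and 11.5% over all genes), and GOLGA2 turned to -0.39 with reference transcripts alone.

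**Figure D5:**
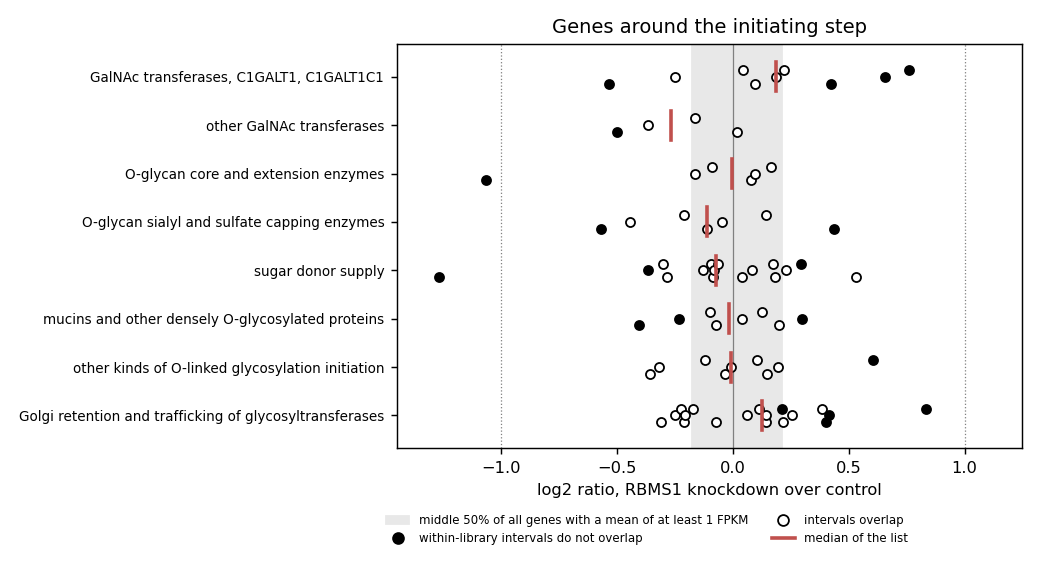
Log2 ratio (RBMS1 knockdown over control) of each gene with a mean of at least 1 FPKM, by list, with filled points where the within-library intervals do not overlap, the median of each list as a red line and the middle 50% of all genes shaded. B4GALT1 and NAGK are the only points beyond the dotted 2-fold lines.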

How the data were processed

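RNA-seq was performed by the authors on 2 libraries of MDA-MB-231 cells. Per the submitters' processing notes, Bowtie2 2.0.6, TopHat2 2.0.9, Cufflinks 2.1.1 and Cuffdiff 2.1.1 were used; the genome build is not given in the sources used here, and 97.3% of matched reference transcripts had the start and end of GENCODE release 29 (GRCh38). The authors deposited FPKM values with within-library intervals per transcript and, in a table of the whole series, FPKM per transcript beside their own fold changes, p-values and q-values, which were not used. The total fragments per library are not given in the sources used here, so the depth is unknown; median coverage per FPKM was 12.3 (knockdown) and 11.3 (control).

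Here, the FPKM of reference transcripts and of assembled transcripts sharing at least 1 intron on the same strand were summed per gene with Python 3.11.15, pandas 2.3.3 and numpy 2.4.6. Transcripts assigned to no gene, which held 70.9% and 71.9% of the summed FPKM, were left out. Log2 ratios used a pseudocount of 1 FPKM and genes with a mean of at least 1 FPKM. The calculation was tested on simulated data. With 1 library per group no test was made. The genes, lists and tests were chosen with earlier results of these data known. Named genes were the 10 genes, RBMS1, B4GALT1, the lowest and highest of each list and any list gene changed 2-fold; CMAS and GNE were named after their values were seen, and marker genes come from a fixed list. Identity between the proteins was not analysed here. The highest gene of 1 list and the motif sites of C1GALT1 are not reported here.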

Additional observations from a re-analysis of the deposited data

How the results depend on the processing

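No paired analysis was possible because each group has 1 library. No spread between cultures is known, so the intervals cover the estimate within a library only, and the depth of the libraries is unknown. The median over the genes that passed the filter (9, or 10 with no filter and 8 with a mean of at least 5 FPKM) stayed above 0 and no gene was 2-fold changed under all 10 other settings. It shrank, however, towards the median over all genes under some of them. With the main transcript alone it was 0.04 (0.03 over all genes), weighted by length 0.07 (0.01), and with reference transcripts alone 0.09 (0.01). Genes with intervals apart numbered 3 higher and 1 lower under 8 of the 10 settings, beside 13.3% and 11.5% of all genes at the main setting. They numbered 3 higher and 3 lower with the main transcript alone (26.4% and 21.9% of genes with a reference main transcript). Weighted by length they numbered 3 higher and 2 lower (16% and 14.6% of all genes), where C1GALT1 was among the lower. The log2 ratio of C1GALT1 turned to -0.72 with the main transcript alone, to -0.57 in the table of the whole series and to -0.43 weighted by length, where its short transcript counts less. GALNT12 turned from just below 0 to 0.49 with reference transcripts alone and with the main transcript alone, to 0.051 weighted by length and to 0.19 weighted by length with overlapping transcripts added; GALNT11 turned to -0.37 in the table of the whole series, which lists 1 minor transcript of it. GALNT2 was at 0.16 weighted by length with overlapping transcripts added. RBMS1 moved to -1.73 with a pseudocount of 5 FPKM, by the construction of the ratio. Genes at least 1.5-fold higher numbered 1 with a pseudocount of 5 FPKM and 1 weighted by length, in place of 2, and genes at least 1.5-fold lower numbered 1 under TPM scaling and 1 with the main transcript alone, in place of 0. At the main setting 6.78% of all genes were 1.5-fold higher and 5.99% lower, and the shares at these other settings are not given here. Length weighting, added transcripts and the 1.5-fold limit were chosen after seeing the data.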
